A study of Mus musculus with 6 samples.

Results

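The genes examined here serve erythroid iron uptake, ferritin storage and the control of both: Tfrc, Tfr2, Steap3, Slc11a2, Slc25a37, Fth1, Ftl1, Ncoa4, Aco1 and Ireb2. They were chosen by name, and every probe set whose annotation names 1 gene only, and that gene is one of these, was taken. This gave 21 of 45037 probe sets and 9 of the 10 listed genes, out of 18193 genes on the arrays. Ftl1, the ferritin light chain, has no such probe set, because the 3 that name it also name other genes. A further Slc25a37 probe set that names several genes was left out. The arrays also carry 3 control probe sets made from Tfrc, which read its 5′ end, its middle and its 3′ end, and these are described beside the Tfrc probe sets.

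Total RNA came from the fetal liver (FL) of E14.5 mouse embryos, 3 Pogz-WT (Pogz+/+) and 3 Pogz-KO (Pogz-/-), with 1 Affymetrix mouse genome array for each liver. All embryos were congenic C57BL/6, and the knockout was carried by every tissue of the embryo, not by the blood lineage alone. No agent was given, and each liver was minced and strained to single cells without sorting, so RNA of erythroid cells was measured together with that of hepatocytes, macrophages and other cells of the organ. Fewer cells of a type and less RNA per cell therefore cannot be told apart. POGZ is a zinc-finger nuclear protein, and the comparison asks which transcripts differ in FL cells that lack it.

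The FL is the main site of red cell formation at this age, and maturing erythroblasts take up more iron than any other cell of the embryo to make heme. Transferrin carrying iron binds the receptor encoded by Tfrc, the complex is taken into endosomes, STEAP3 reduces the iron, DMT1 (Slc11a2) moves it to the cytosol and mitoferrin 1 (Slc25a37) moves it into mitochondria. Spare iron is stored in ferritin, built of heavy (Fth1) and light (Ftl1) chains, and NCOA4 delivers ferritin for breakdown so that its iron is freed. The iron regulatory proteins encoded by Aco1 and Ireb2 bind iron-responsive elements in messenger RNA, which stabilises the Tfrc transcript and holds back translation of ferritin when iron is scarce.

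Of the 21 probe sets, a Tfrc one had the largest decrease among those with a mean signal above the median of the array, so the sequence before its annotated start is shown. RefSeq promoter windows on GRCm38.p6 were at hand for 8 of the 10 genes. Tfrc has 2 windows, and the 250 bases before its first annotated start, chr16:32608646-32608895 on the plus strand, hold no match to ACGTG (the core of the hypoxia response element), TATAA or GATAA on either strand.
Tfrc, before the first start: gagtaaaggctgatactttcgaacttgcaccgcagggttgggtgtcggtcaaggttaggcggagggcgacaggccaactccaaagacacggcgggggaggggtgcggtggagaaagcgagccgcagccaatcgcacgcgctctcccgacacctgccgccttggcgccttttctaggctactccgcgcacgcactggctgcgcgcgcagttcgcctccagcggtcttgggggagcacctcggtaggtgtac
The window before the second start holds 1 ACGTG and 1 TATAA, in capitals in these 30-base stretches, at chr16:32608882-32608911 and chr16:32608938-32608967 on the plus strand.
Tfrc, ACGTG: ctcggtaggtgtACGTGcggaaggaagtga
Tfrc, TATAA: gtggggccgagcTATAAgctttgggtggga
Of 32851 windows of this length, 16.6% hold ACGTG, 22.8% TATAA and 22.6% GATAA on either strand. These matches describe the letters only, and no measurement here bears on binding.

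The arrays were compared before the genes. Pogz-WT replicate 1 stood apart: its log2 values correlated with those of the other arrays at r = 0.794 to 0.810, against up to 0.906 between others. In it, 43.2% of all probe sets were more than 1 log2 unit from the mean of Pogz-WT replicates 2 and 3. Median intensity was 54.3 in that array, 37.5 and 35.9 in the other Pogz-WT arrays and 29.7 to 31.5 in Pogz-KO. The geometric mean of 9 spike-in control probe sets was 33229, then 7843 and 6694, then 4047 to 5255. Both measures thus separated the genotypes even without Pogz-WT replicate 1, and their part in the differences as deposited was not tested. The ratio of 3′ to 5′ signal, a measure of RNA integrity and labelling, was 52.3 for Actb in that array, 5.50 and 6.63 in the other Pogz-WT arrays and 3.72 to 4.09 in Pogz-KO. Gapdh gave 15.3, then 7.37 and 9.29, then 4.87 to 5.08, so every Pogz-WT array lay above every Pogz-KO array for both genes. Results are therefore given over all 6 arrays and over the 5 arrays that remain without Pogz-WT replicate 1. The targeted gene had 4 probe sets, and the brightest read 9.17, 9.03 and 8.95 in Pogz-WT and 9.16, 9.22 and 9.33 in Pogz-KO (log2 difference 0.18, limma adjusted p = 0.598). The others disagreed in direction: 2 dim ones were higher in every Pogz-KO array (2.17 and 1.47) and 1 overlapped (-0.59), with limma adjusted p from 0.187 to 0.436. Their position on the gene, inside or outside the deleted stretch, was not analysed here, so they are no check of genotype.

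Over 6 arrays, 0 of the 21 probe sets differed between genotypes at a limma adjusted p under 0.05, and 8 had an unadjusted p under 0.05. Plain limma (no trend or robust fit of the variance) and the methods' t-test also called 0, with an unadjusted p under 0.05 for 3 and 6. In the first of these fits 0.0377% of all probe sets were called, and 7024 of 45037 had an unadjusted p under 0.05. Over 5 arrays, 5 of the 21 were called: 4 were lower in Pogz-KO, 2 for Tfrc, 1 for Slc25a37 and 1 for Fth1, and 1 was higher, the other Fth1 probe set. In the same fit 1.22% of all probe sets were lower and 1.45% were higher. Plain limma over the same 5 arrays called 0 of the 21, with an unadjusted p under 0.05 for 4, so all 5 calls rest on the trend and robust fit. Only the Tfrc probe set 1422966_a_at among the 5 also passed a change of 1.5-fold. The median log2 difference, Pogz-KO minus Pogz-WT, was -0.18 over the 21 and -0.13 over all probe sets in 5 arrays. The median of all probe sets became -0.01 after quantile normalization and 0.14 after centring on array medians, so small differences depend on the scaling, and the median of the 21 became -0.06 and 0.09. Quantile normalization of the 5 arrays called 1.31% of all probe sets higher and 0.853% lower, and 1 of the 21 in each direction. Centring called 6.14% higher and 0.322% lower, and 4 and 2 of the 21, so a call of a higher level after centring is set against that larger background. Over 6 arrays, 7 of the 21 were lower in every Pogz-KO array than in every Pogz-WT array, against 15.8% of all probe sets, and 4 were higher in every one, against 9.1%.

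**Figure D1:**
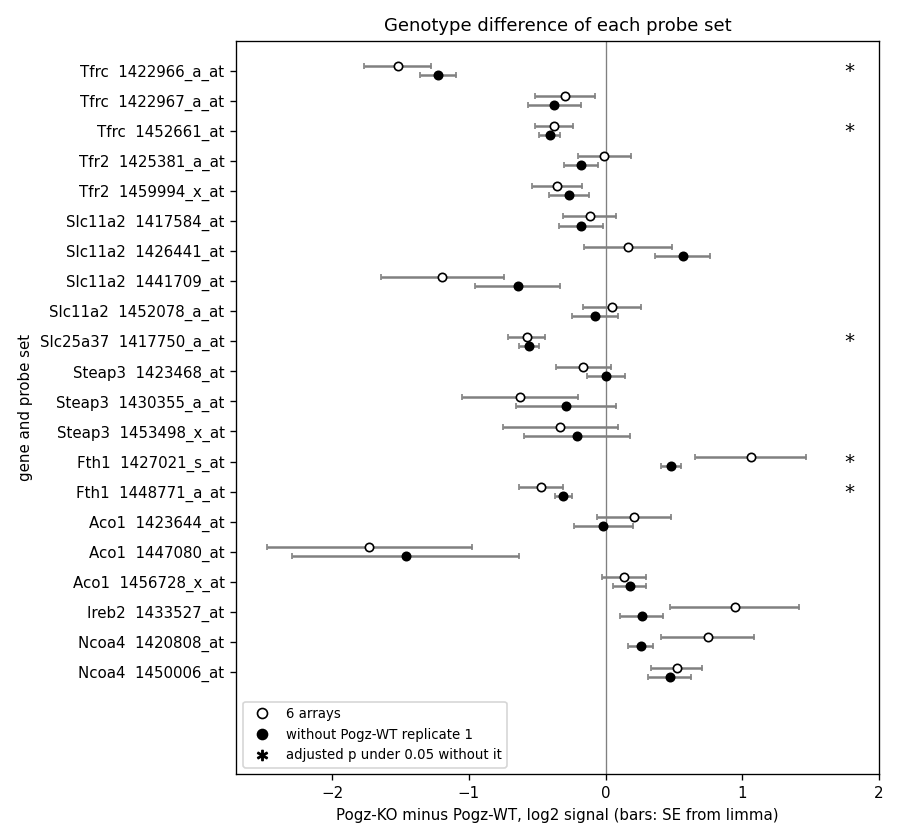
Log2 difference between Pogz-KO and Pogz-WT (x axis) with its limma SE for each of the 21 probe sets (y axis), over 6 arrays (open) and without Pogz-WT replicate 1 (filled), with an asterisk for an adjusted p under 0.05 in the latter. Tfrc 1422966_a_at lies at -1.52 and -1.22, and the Fth1 probe sets lie on opposite sides of 0 in both.

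Tfrc, the transferrin receptor through which erythroblasts take up nearly all their iron, was lower in Pogz-KO over 5 arrays for 2 of its 3 probe sets, by an amount that differed between them. Probe set 1422966_a_at read 12.84, 12.06 and 11.84 (log2) in Pogz-WT and 11.00, 10.53 and 10.65 in Pogz-KO. Every Pogz-KO array was below every Pogz-WT array, and Pogz-WT replicate 1 was the highest of all. The means were 12.25 ± 0.53 and 10.73 ± 0.25 (SD, n = 3 each), a log2 difference of -1.52 with SE 0.25 (limma adjusted p = 0.0718). Without Pogz-WT replicate 1 the difference was -1.22 with SE 0.13, or 2.34-fold lower, and it passed (limma adjusted p = 0.00134). It also passed in those 5 arrays after quantile normalization (-1.17, limma adjusted p = 0.00240) and after centring (-0.95, limma adjusted p = 0.00271).

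The Tfrc probe set of highest mean signal, 1452661_at, read 13.61, 13.74 and 13.68 in Pogz-WT and 13.16, 13.38 and 13.36 in Pogz-KO. The genotypes did not overlap here either, and Pogz-WT replicate 1 lay close to its group. The log2 difference was -0.37 over 6 arrays (SE 0.14, limma adjusted p = 0.253) and -0.41 over 5 (SE 0.08, limma adjusted p = 0.0194, 1.33-fold lower). After quantile normalization of the 5 arrays it was -0.18 (limma adjusted p = 0.385) and after centring -0.14 (limma adjusted p = 0.440), so this call depended on the scaling. With all 6 arrays it was -0.04 after quantile normalization (limma adjusted p = 0.930) and 0.085 after centring (limma adjusted p = 0.874). Its direction there thus depended on the scaling too. The third, 1422967_a_at, read 8.39, 8.74 and 8.52 against 8.61, 8.24 and 7.91, with the genotypes overlapping. It did not pass in 6 arrays (-0.30, limma adjusted p = 0.518) or in 5 (-0.37, limma adjusted p = 0.387). With all 6 arrays it was -0.40 after quantile normalization (limma adjusted p = 0.455) and 0.16 after centring (limma adjusted p = 0.825).

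The control probe sets read Tfrc at known places along its transcript. The 3′ control read 11.33, 10.66 and 10.58 in Pogz-WT and 9.79, 9.46 and 9.38 in Pogz-KO, without overlap. Its log2 difference was -1.31 over 6 arrays (limma adjusted p = 0.0864) and -1.08 over 5 (SE 0.13, limma adjusted p = 0.00270, 2.11-fold lower). The middle control read 8.52, 8.19 and 7.99 against 7.42, 7.54 and 7.33, also without overlap, with differences of -0.80 (limma adjusted p = 0.165) and -0.66 (limma adjusted p = 0.0631). The 5′ control read 6.79, 7.53 and 7.33 against 7.05, 7.26 and 6.77. It overlapped between genotypes over 6 arrays but not without Pogz-WT replicate 1, and its differences were -0.19 (limma adjusted p = 0.751) and -0.40 (limma adjusted p = 0.383). From the 3′ to the 5′ control the measured decrease thus became smaller.

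**Figure D2:**
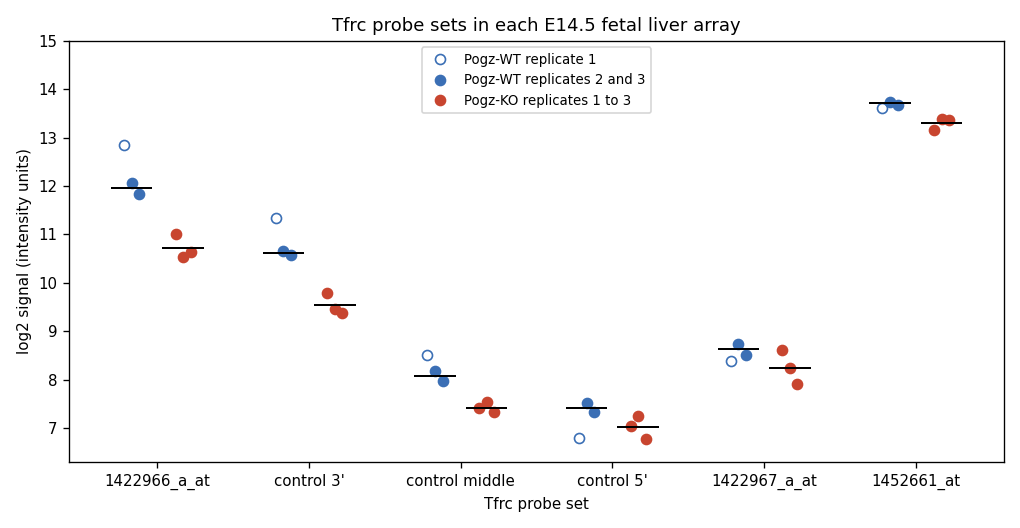
Log2 signal (y axis) of the 3 Tfrc probe sets and the 3 Tfrc controls (x axis) in each array, with bars at the mean of Pogz-WT replicates 2 and 3 and of the 3 Pogz-KO arrays. The gap between genotypes is widest for 1422966_a_at and the 3′ control and smaller, at -0.40, -0.37 and -0.41 between the bars, for the 5′ control, 1422967_a_at and 1452661_at.

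Whether the Tfrc probe sets differed in their genotype difference was tested on the log2 difference between 2 of them within each array, over all 15 pairs. The values for 1422966_a_at minus 1452661_at were -0.77, -1.68 and -1.83 in Pogz-WT and -2.16, -2.84 and -2.71 in Pogz-KO, a shift of -1.15, or -0.81 without Pogz-WT replicate 1. The genotypes did not overlap for this pair (exact permutation p = 0.1, two-sided, adjusted p = 0.136), and 3 arrays against 3 cannot give an exact p below 0.1. Of the 15 pairs, 11 did not overlap, each with this same p. The other 4 overlapped: 1422966_a_at with the 3′ control (shift -0.21, exact permutation p = 0.2), and the 3 pairs among 1452661_at, 1422967_a_at and the 5′ control (exact permutation p = 0.5 to 0.8). The pairs share probe sets and are not independent of each other.

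The 3′ to 5′ ratio of Tfrc itself was 23.3, 8.75 and 9.51 in Pogz-WT and 6.70, 4.57 and 6.10 in Pogz-KO, a log2 shift of -1.13. The shifts were -1.67 for Actb and -1.03 for Gapdh, whose ratios were also higher in every Pogz-WT array (exact permutation p = 0.1 for each of the 3 genes). The part of this ratio in the size of the Tfrc decrease was not tested, and with every Pogz-WT array above every Pogz-KO array it cannot be told apart from genotype.

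**Figure D3:**
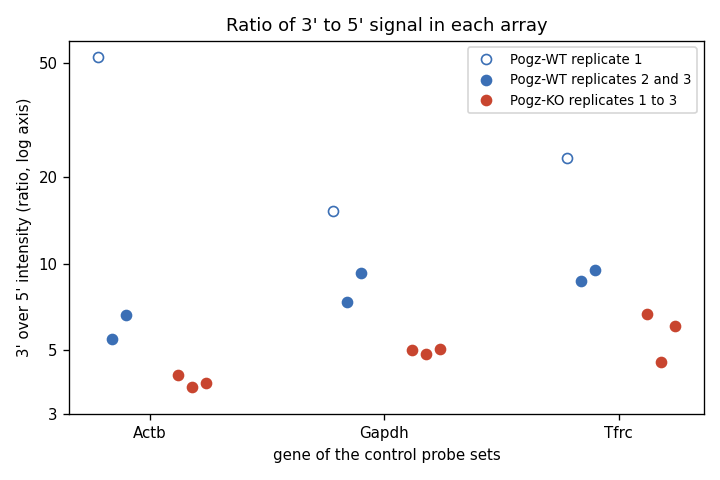
Ratio of 3′ to 5′ intensity (y axis, log scale) for the Actb, Gapdh and Tfrc control probe sets (x axis) in each of the 6 arrays. All 3 Pogz-WT arrays lie above all 3 Pogz-KO arrays for each gene, and Pogz-WT replicate 1 is the highest.

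Tfr2, a second transferrin receptor that binds the erythropoietin receptor in erythroblasts and senses iron in hepatocytes, had 2 probe sets, and neither was called. Probe set 1425381_a_at read 8.54, 9.15 and 8.97 in Pogz-WT and 8.88, 8.89 and 8.86 in Pogz-KO. Probe set 1459994_x_at read 10.30, 9.94 and 10.14 against 10.03, 9.53 and 9.77. Both overlapped between genotypes, with log2 differences over 5 arrays of -0.18 (limma adjusted p = 0.524) and -0.27 (limma adjusted p = 0.409).

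The endosomal steps were not called in either fit. Steap3, the ferrireductase of erythroid endosomes, read 9.10, 8.72 and 8.48 in Pogz-WT and 8.63, 8.70 and 8.48 in Pogz-KO with its brightest probe set, 1423468_at, and the genotypes overlapped (5 arrays: 0.00, limma adjusted p = 0.996). Its other probe sets, 1430355_a_at and 1453498_x_at, had differences of -0.29 and -0.21 over 5 arrays (limma adjusted p = 0.755 and 0.841). Of these, 1430355_a_at was lower in every Pogz-KO array (5.15, 5.15 and 5.13) than in every Pogz-WT array (6.44, 5.35 and 5.51), without passing the test. Its signal was near the median of all probe sets, 4.91, and 1453498_x_at overlapped. Slc11a2, the DMT1 transporter, had 4 probe sets with log2 differences over 5 arrays of -0.18 (1417584_at), 0.56 (1426441_at), -0.64 (1441709_at) and -0.08 (1452078_a_at), and limma adjusted p from 0.194 to 0.868. Probe set 1426441_at was at 7.79 in Pogz-WT replicate 1, above 6.55 and 6.64 in the other Pogz-WT arrays and 7.03 to 7.27 in Pogz-KO. Among the settings run, it passed only after centring of the 5 arrays (0.84, limma adjusted p = 0.0300). Probe set 1441709_at was lower in every Pogz-KO array (6.39, 6.09 and 5.46) than in every Pogz-WT array (8.28, 6.43 and 6.82), without passing the test.

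Slc25a37, which encodes mitoferrin 1 and brings iron to the mitochondria of erythroblasts for heme synthesis, was lower in Pogz-KO over 5 arrays. Its probe set 1417750_a_at read 14.30, 14.31 and 14.19 in Pogz-WT and 13.58, 13.79 and 13.70 in Pogz-KO. As deposited, the genotypes did not overlap and Pogz-WT replicate 1 lay close to its group. The log2 difference was -0.58 over 6 arrays (SE 0.14, limma adjusted p = 0.149) and -0.56 over 5 (SE 0.07, limma adjusted p = 0.00389, 1.47-fold lower). In 5 arrays it was -0.32 after quantile normalization (limma adjusted p = 0.0650) and -0.29 after centring (limma adjusted p = 0.0471). In 6 arrays it was -0.23 (limma adjusted p = 0.471) and -0.12 (limma adjusted p = 0.787), so its size depended on the scaling.

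Ferritin heavy chain, the ferroxidase subunit that takes iron into storage, gave opposite readings with its 2 probe sets. Probe set 1448771_a_at read 15.10, 14.66 and 14.56 in Pogz-WT and 14.31, 14.35 and 14.24 in Pogz-KO, so it was lower in every Pogz-KO array. Probe set 1427021_s_at read 11.53, 13.30 and 13.28 in Pogz-WT and 13.71, 13.88 and 13.71 in Pogz-KO, so it was higher in every one, and it was lowest by far in Pogz-WT replicate 1. Over 6 arrays neither passed (-0.47, limma adjusted p = 0.237, and 1.06, limma adjusted p = 0.272).

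Over 5 arrays both Fth1 probe sets passed, in opposite directions. For 1448771_a_at the log2 difference was -0.31 (SE 0.06, limma adjusted p = 0.0229, 1.24-fold lower), and after quantile normalization 0.06 (limma adjusted p = 0.711). For 1427021_s_at it was 0.48 (SE 0.07, limma adjusted p = 0.00673, 1.39-fold higher), and after quantile normalization 0.70 (limma adjusted p = 0.00137). No direction for Fth1 as a gene follows from these readings. Within each array, 1427021_s_at minus 1448771_a_at was -3.57, -1.36 and -1.28 in Pogz-WT and -0.60, -0.47 and -0.53 in Pogz-KO, without overlap (exact permutation p = 0.1). This pair was chosen after its values were seen. Its shift was 1.54, or 0.79 without Pogz-WT replicate 1. The 2 probe sets of Ncoa4, compared in the same way (1420808_at minus 1450006_at), overlapped between genotypes. Their shift was 0.23, or -0.21 without that array.

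Ncoa4, the receptor that carries ferritin to the lysosome, had higher values in Pogz-KO without passing the test. Probe set 1420808_at read 10.66, 12.26 and 12.01 in Pogz-WT and 12.31, 12.44 and 12.42 in Pogz-KO, with Pogz-WT replicate 1 far below the rest. Probe set 1450006_at read 8.58, 8.87 and 8.58 against 8.92, 9.35 and 9.31. Neither overlapped between genotypes, and the log2 differences over 5 arrays were 0.26 (limma adjusted p = 0.192) and 0.47 (limma adjusted p = 0.173). After centring of the 5 arrays both passed, at 0.53 (limma adjusted p = 0.00670) and 0.74 (limma adjusted p = 0.0154), a scaling under which 6.14% of all probe sets were called higher.

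The iron regulatory proteins were not called. Ireb2, which encodes IRP2, read 6.37, 8.36 and 8.45 in Pogz-WT and 8.47, 8.63 and 8.92 in Pogz-KO with probe set 1433527_at. The groups did not overlap, but 8.45 and 8.47 are nearly equal and Pogz-WT replicate 1 set most of the 6-array difference of 0.94 (limma adjusted p = 0.359), which was 0.26 over 5 arrays (limma adjusted p = 0.453). Aco1, which encodes IRP1, had log2 differences over 5 arrays of 0.18 (1456728_x_at), -0.01 (1423644_at) and -1.46 (1447080_at), with limma adjusted p from 0.432 to 0.985. The last of these was the only 1 of the 21 probe sets with a mean signal below the median of all probe sets.

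**Figure D4:**
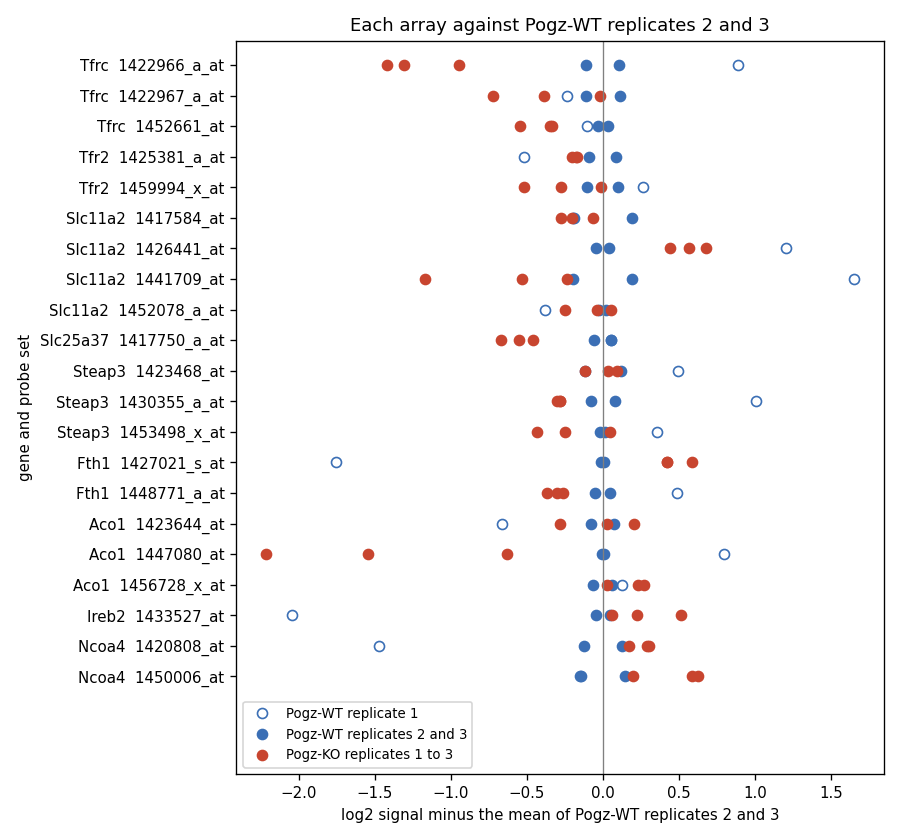
Log2 signal of each of the 21 probe sets (y axis) in each array minus the mean of Pogz-WT replicates 2 and 3 (x axis). Pogz-WT replicate 1 (open) lies more than 1 unit below 0 for 3 probe sets (Ireb2, Fth1 1427021_s_at and Ncoa4 1420808_at) and more than 1 unit above for 3 (2 of Slc11a2 and 1 of Steap3), while it lies close to its group for Tfrc 1452661_at and Slc25a37.

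The rest of the iron pathway was read with 1 probe set for each gene, that of highest mean signal. Of 35 other iron genes 31 were measured, and 0 were called by limma in either fit, with an unadjusted p under 0.05 for 1 over 6 arrays and 5 over 5 arrays. Plain limma and the methods' t-test over 6 arrays also called 0, with an unadjusted p under 0.05 for 2 each. Over all genes, 0.121% were called over 6 arrays, and 2.41% were called higher and 2.07% lower over 5. An unadjusted p under 0.05 in the same limma fits was found for 3222 of 18193 genes over 6 arrays and 3329 over 5. The median log2 difference of the 31 over 5 arrays was -0.06. The 6 with the largest moderated t over 6 arrays did not pass in either fit. Of these, Ftmt, mitochondrial ferritin (-1.52 over 6 arrays and -1.26 over 5), and Slc46a1, a heme and folate transporter (-2.17 and -1.94), had a mean signal below the median of genes. Flvcr1, a heme exporter (0.46 and 0.19), Hmox1, heme oxygenase 1 (0.54 and 0.21), and Pcbp1, an iron chaperone for ferritin (0.43 and 0.11), had differences more than 2 times smaller without Pogz-WT replicate 1. Iscu, the scaffold for iron-sulfur clusters, was at 0.28 and 0.38. The limma adjusted p of the 6 ran from 0.201 to 0.362 over 6 arrays and from 0.0640 to 0.480 over 5. In the same fit over genes, the probe sets standing for Tfrc, Slc25a37 and Fth1 were called lower over 5 arrays and 0 were called higher. For Fth1 this is 1448771_a_at alone, since 1427021_s_at was higher. After quantile normalization 0 members were called, with 2.07% of all genes higher and 1.66% lower. After centring 1 member was called higher and 1 lower, and 4 other iron genes were called higher, where 10.1% of all genes were called higher and 0.55% lower. Of 5 measured genes among other transcripts with an iron-responsive element, Alas2, the first enzyme of erythroid heme synthesis, was lower over 5 arrays (-0.48, limma adjusted p = 0.00640). After quantile normalization it did not pass (-0.29, limma adjusted p = 0.0921).

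Of 15 measured erythroid markers, 5 were lower and 0 higher over 5 arrays: Slc4a1, the band 3 anion exchanger (-0.69, limma adjusted p = 0.000902), Icam4 (-0.62, limma adjusted p = 0.00672), Alas2, Ermap (-0.40, limma adjusted p = 0.0122) and Klf1, an erythroid transcription factor (-0.39, limma adjusted p = 0.0177). After quantile normalization 2 stayed lower, Slc4a1 and Icam4. As deposited, 12 of the 15 had an unadjusted p under 0.05 over 5 arrays, against 3329 of 18193 genes. The median of the 15 was -0.27 with 13 below 0. Among the 13, Hba-a1 (-1.72, not called) was read by a dim probe set, with a mean signal below the median of genes. The summed intensity of the 15 was 85346 and 85901 in Pogz-WT replicates 2 and 3, 102777 in replicate 1 and 63441 to 68419 in Pogz-KO. Among 9 early progenitor markers, 2 were higher over 5 arrays, Kit, the stem cell factor receptor (0.91, limma adjusted p = 0.00421), and Myb (0.45, limma adjusted p = 0.0165). An unadjusted p under 0.05 was found for 3 of the 9. The median of the 9 was -0.19 with 5 below 0, so the list as a whole did not follow Kit and Myb. The summed intensity of the list was 3138 and 3094 in Pogz-WT replicates 2 and 3, 2647 in replicate 1 and 3699 to 4056 in Pogz-KO. Myb, the brightest of the 9, weighed most in this sum, so the sum is no separate result. The part of these shifts in the Tfrc and Slc25a37 differences was not tested.

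Other cells of the FL also express these genes, and their markers were read in the same fit over 5 arrays. Of 9 hepatocyte markers, Afp was lower (-0.66, limma adjusted p = 0.00879), which did not pass after quantile normalization (limma adjusted p = 0.290), and the summed intensity was 34263 and 27664 in Pogz-WT replicates 2 and 3, 50721 in replicate 1 and 17024 to 27201 in Pogz-KO. Afp, the brightest of the 9, weighed most in this sum, so the sum is no separate result. The median of the 9 was -0.53 with 7 below 0, while Alb (0.41) and Ahsg (0.16) were above 0 and not called. Of 10 macrophage markers 0 were called and 4 had an unadjusted p under 0.05. The sums were 4763 and 4705 in Pogz-WT replicates 2 and 3, 5710 in replicate 1 and 3375 to 4518 in Pogz-KO. Csf1r, the brightest of the 10, weighed most in them. Of 9 granulocyte markers 3 were higher (Camp, Ctsg and Ltf), with Camp also called over 6 arrays (1.17, limma adjusted p = 0.0290), with a median of 0.19 over the 9. Of 6 lymphoid markers 1 was higher (Nkg7), while 4 were below 0 and the median was -0.75. None of 4 megakaryocyte or 7 endothelial and stromal markers was called or had an unadjusted p under 0.05. The hepatocyte list had 1 gene with such a p, the granulocyte list 5 and the lymphoid list 2, against 3329 of 18193 genes. Some markers were dim, down to 1.19 (log2) for Cd163, 1.46 for Cd79a and 1.62 for Pecam1 in single arrays. All measured lymphoid markers but Nkg7 had a mean signal below the median of genes. The part of these other cells in the iron gene differences was not tested.

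**Figure D5:**
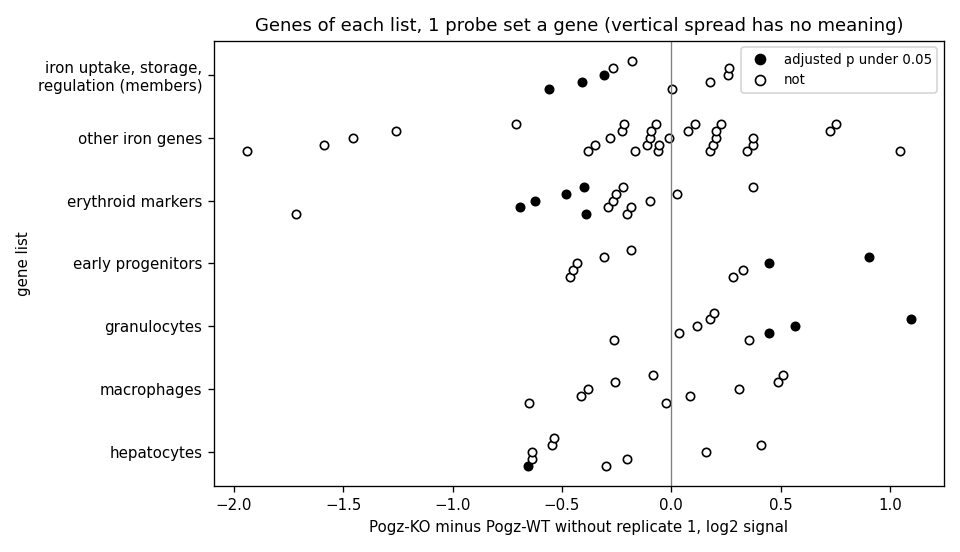
Log2 difference between Pogz-KO and Pogz-WT without replicate 1 (x axis) for each measured gene of 7 lists (y axis), 1 probe set for each gene, filled where the limma adjusted p is under 0.05. In the list of iron uptake, storage and regulation 3 genes are called lower (Tfrc, Slc25a37 and, by 1 of its 2 probe sets, Fth1), in the list of other iron genes 0, and among erythroid markers 5, all lower.

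The genes whose signal followed Tfrc most closely were ranked by Pearson's r with 1452661_at over 6 arrays, among 9095 genes of above-median signal. They were Synj1 (r = 0.991), Prkd3 (r = 0.987), Ap1s3 (r = 0.985), 5430401H09Rik (r = 0.985) and Cdkn2c (r = 0.980). Each had all 3 Pogz-KO arrays below all 3 Pogz-WT arrays, as did 15.8% of all probe sets. Ranking by likeness to 1452661_at, whose genotypes do not overlap, favours such genes, so this is no separate result. The points share 6 arrays in 2 genotypes, so these values are a description of the ranking.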

How the data were processed

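Per the labels, about 100 ng of RNA from each liver was labelled with a 3′ IVT kit. To obtain the deposited intensity of each probe set the authors used Affymetrix Expression Console (algorithm and version: not given in the sources used here). Intensities are linear, and the 2% trimmed mean of each array is 150. Log2 was taken with no pseudocount, 64 control probe sets were left out, and genotype was the only term in a two-sided limma fit (version 3.58.1, R 4.3.3, eBayes with trend and robust) of 45037 probe sets, with p-values adjusted by Benjamini-Hochberg. Of these, 34945 name 1 gene. Control probe sets were fitted in an alternative that keeps them. Genes were fitted with 1 probe set each, the one of highest mean signal. Groups came from the labels, which call the samples biological replicates. The named genes are all listed members, called genes of the other lists, the 6 other iron genes with the largest moderated t and the 5 genes most like Tfrc. The members, lists and tests were chosen with earlier results of these data known. The calculations were tested on simulated data with 200 changed genes. The number of arrays limits the precision. Some items are not reported here.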

Additional observations from a re-analysis of the deposited data

How the results depend on the processing

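Over 6 arrays, quantile normalization, median centring, leaving out dim probe sets, plain limma, the methods' t-test and a Y-linked covariate gave 0 called probe sets among the 21, as did adding the 1.5-fold cutoff, while an adjusted p under 0.10 gave 1. The replicate block called 1, Tfrc 1422966_a_at (-1.52, limma adjusted p = 0.0192). The labels do not say that the replicate numbers pair the samples. Deviations of same-numbered arrays correlated at 0.00784, -0.00444 and -0.00503. With Pogz-WT replicate 1 so far from its group, these values cannot show whether the samples are paired. Leaving out each array in turn gave 0 to 5 called probe sets, of which 0 to 2 for Tfrc. The highest counts came without Pogz-WT replicate 1, and leaving out any other array gave 0. The alternatives on those 5 arrays were chosen after seeing the data. They called 2 probe sets after quantile normalization (1 for Tfrc), 6 after centring (1 for Tfrc; 2912 of all probe sets, against 1202 as deposited), 5 with dim probe sets left out (2 for Tfrc), 2 for Tfrc with control probe sets kept, 1 at 1.5-fold and 0 with plain limma. The 4 other iron genes called after centring of the 5 arrays were Pcbp1, Exoc6, Flvcr1 and Iscu, all higher, where centring called 10.1% of all genes higher and 0.55% lower, and the other alternatives called 0. The shift between Tfrc 1422966_a_at and 1452661_at was -0.81 to -1.35 with 1 array left out. Over 355 combinations of a member probe set and a setting, 320 kept the direction of the 6-array fit and 35 had the other direction. Of the 355, 19 were called. Over 6 arrays, plain limma, the methods' t-test, leaving out dim probe sets and the replicate block cannot change the log2 difference. Their agreement in direction was fixed in advance, so the 320 is no measure of stability. The cause of the changes in direction and in calls was not tested. With 2 Pogz-WT arrays left, their spread rests on 2 values.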
